A study of Mus musculus with 2 samples.

Results

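Cytosolic ribosomal protein genes encode the proteins that, together with ribosomal RNA, build the small and large subunits of the ribosome. They were described here in mouse hindbrain taken at embryonic day 11.5 from the strain B6NCrl. The members were the protein-coding genes of the deposited tables whose symbol is Rpl or Rps followed by a digit, Rplp0 to Rplp2, or Rpsa, leaving out symbols with -ps and the Rps6k kinases. This gave 86 genes of 43346 Ensembl genes. Of these, 77 are the usual ribosomal proteins and are called the core genes, 46 of the large and 31 of the small subunit. The other 9 have the name of a relative or partner of a core gene. The series held 1 group, for which the labels name no mutation or treatment, in 2 biological replicates. Pool 1 combined the hindbrains of 109 embryos and pool 2 those of 88 embryos, male and female together. Each library began with 10 ng of total RNA, kept above 200 nt, and synthetic ERCC RNAs were spiked in. With 1 group there was no comparison of conditions, so levels and the agreement between the pools are described and no p-value is given.

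A ribosome holds nearly every ribosomal protein in a single copy, so a growing cell needs their mRNAs in matched amounts. Proteins made in excess are degraded, and control therefore acts at several steps. In mammals these mRNAs begin with a C followed by a run of pyrimidines, the 5′ terminal oligopyrimidine (TOP) motif, through which the mTOR kinase and the RNA-binding protein Larp1 set their translation. At this stage the hindbrain is made largely of dividing neural progenitors and young neurons, cells with a high demand for new ribosomes. Mouse mutations in several of these genes give specific defects of skeleton, pigment or brain, and loss of 1 copy of many of them causes Diamond-Blackfan anaemia in humans.

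The tables summed to 45340440 expected counts in pool 1 and 41261544 in pool 2. Spike-ins held 16.2% of TPM in pool 1 and 22.2% in pool 2. TPM is a level per transcript length and is scaled to all entries of a table, spike-ins included. Of 10 hindbrain marker genes 9 had at least 1 TPM in both pools, with a median of 17.7 TPM in pool 1 and 14.0 TPM in pool 2, and Egr2 was below 1 TPM in both. Of 6 forebrain markers 1 did, Lhx2. Markers of other cells were present too. The embryonic globin Hbb-y, of primitive red cells, had 7661 TPM in pool 1 and 7091 TPM in pool 2, and all 7 erythroid markers reached 1 TPM in both. In such tissue libraries fewer cells of a type and less RNA per cell cannot be told apart, and the part that red cells, mesenchyme or vessels took in the levels below was not tested.

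The core genes were among the most abundant mRNAs of the tissue. All 77 had at least 1 TPM in both pools, against 33% of all Ensembl genes and 59.4% of protein-coding nuclear genes. Their median was 589 TPM in pool 1 and 549 TPM in pool 2 (569 ± 27.8, SD, n = 2), 33.3 times in pool 1 and 33.7 times in pool 2 the median of all protein-coding nuclear genes with a mean of at least 1 TPM. Together they held 4.75% of TPM in pool 1 and 4.38% in pool 2 (4.56% ± 0.261, SD, n = 2). Over protein-coding nuclear genes alone, which leaves out the spike-ins, the share was 6.45% in pool 1 and 6.57% in pool 2 (6.51% ± 0.0807, SD, n = 2), so that pool 2 was the higher on this scale and pool 1 on the other. In reads the share was smaller, because the mRNAs are short: 857212 expected counts in pool 1, or 1.89% (95% Wilson interval 1.887 to 1.895), and 760691 in pool 2, or 1.84% (1.839 to 1.848). These intervals cover counting error only. Of the 50 most abundant protein-coding nuclear genes 4 were core genes in pool 1 and 5 in pool 2, and of the 200 most abundant 49 were in each pool.

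Although the proteins are needed in equal numbers, the annotated genes were not at equal levels. The highest core gene stood 33.1-fold above the lowest in pool 1 and 34.4-fold in pool 2. Most lay close together: 62 of 77 were within 2-fold of the median in each pool, and the quartiles ran from 409 to 805 TPM in pool 1 and from 377 to 745 TPM in pool 2. The SD over genes of log2(TPM + 1) was 0.94 in pool 1 and 0.95 in pool 2. The order was nearly the same in both pools (across 77 genes of the same libraries, Pearson r of log2 TPM 0.998 and Spearman rho 0.995, as a description). The subunits had similar medians: the small subunit genes were at 591 TPM in pool 1 and 561 TPM in pool 2, and the large subunit genes at 584 TPM in pool 1 and 546 TPM in pool 2. Longer genes tended to be lower, with a Spearman rho of length and TPM of -0.23 in pool 1 and -0.22 in pool 2 over 77 genes.

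**Figure D1:**
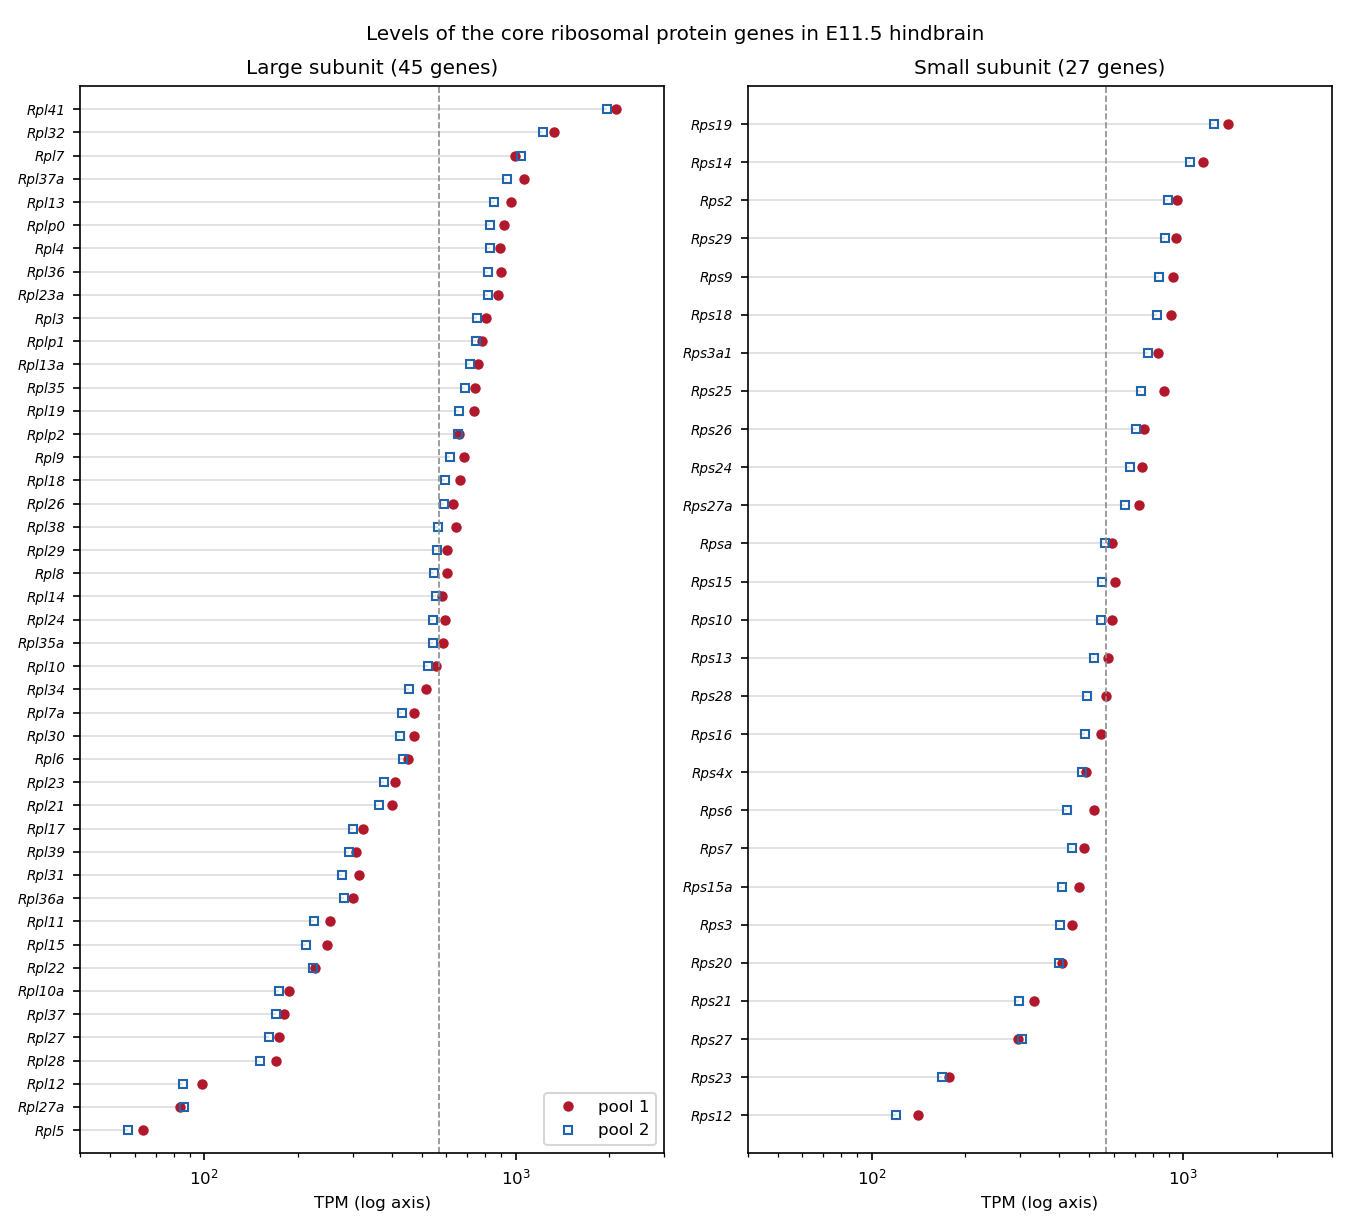
TPM (horizontal, log axis) of 72 core ribosomal protein genes (rows, ordered by mean) in pool 1 (filled circles) and pool 2 (open squares), large subunit left and small subunit right; the dashed line is the median of the mean TPM of the genes drawn. Rpl41 was highest at 2102 TPM in pool 1 and 1959 TPM in pool 2, and Rpl5 lowest at 63.6 TPM in pool 1 and 57.0 TPM in pool 2.

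At the top stood Rpl41, whose product is the shortest ribosomal protein, with 2102 TPM in pool 1 and 1959 TPM in pool 2. Rps19, the gene most often mutated in Diamond-Blackfan anaemia, followed with 1387 TPM in pool 1 and 1259 TPM in pool 2. Rpl32 had 1330 TPM in pool 1 and 1224 TPM in pool 2. In each pool 6 core genes were above 1000 TPM, among them these 3 and Rps14 (1161 TPM in pool 1 and 1055 TPM in pool 2) in both. Rpl37a passed 1000 TPM in pool 1 alone, with 1063 TPM in pool 1 and 937 TPM in pool 2, and Rpl7 in pool 2 alone, with 995 TPM in pool 1 and 1041 TPM in pool 2. Rps2, Rps29 and Rpl13 were also among the highest 10, between 946 and 964 TPM in pool 1 and between 852 and 896 TPM in pool 2.

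At the bottom stood Rpl5, with 63.6 TPM in pool 1 and 57.0 TPM in pool 2. Rpl27a had 83.7 TPM in pool 1 and 86.1 TPM in pool 2, and Rpl12 had 98.8 TPM in pool 1 and 85.8 TPM in pool 2. Rps12 had 140.8 TPM in pool 1 and 120.1 TPM in pool 2. The other 6 of the lowest 10 were Rpl28, Rpl27, Rps23, Rpl37, Rpl10a and Rpl22, between 170.3 and 227 TPM in pool 1 and between 152 and 224 TPM in pool 2. Of these 10 genes, 9 had more TPM on their processed pseudogenes than on themselves.

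Among genes of the large subunit, the stalk that recruits translation factors showed a wide range. Rplp0, its scaffold, had 921 TPM in pool 1 and 826 TPM in pool 2. The acidic stalk proteins that dock on it were close behind, Rplp1 with 778 TPM in pool 1 and 745 TPM in pool 2, and Rplp2 with 660.4 TPM in pool 1 and 652 TPM in pool 2. Rpl12, at the base of the stalk, was listed lower: Rplp0 exceeded it 9.32-fold in pool 1 and 9.62-fold in pool 2. Adding the TPM of pseudogenes brought Rpl12 to 374 TPM in pool 1 and 356 TPM in pool 2, still the lowest of the 4.

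Rpl5 and Rpl11 bind the 5S ribosomal RNA, and the particle they form can also bind Mdm2 and so stabilise p53 when assembly fails. Both were in the low range, Rpl11 with 254 TPM in pool 1 and 226 TPM in pool 2. As listed, Rpl11 exceeded Rpl5 3.99-fold in pool 1 and 3.97-fold in pool 2. With the TPM of pseudogenes added, Rpl5 had 628 TPM in pool 1 and 595 TPM in pool 2. Rpl11 then had 521 TPM in pool 1 and 486 TPM in pool 2, so the order turned. With their reads added at the length of the core gene, Rpl5 had 421 TPM in pool 1 and 413 TPM in pool 2. Rpl11 then had 438 TPM in pool 1 and 399 TPM in pool 2, so the order turned in pool 2 alone. Of the proteins that line the exit tunnel of the nascent chain, Rpl4 had 888 TPM in pool 1 and 827 TPM in pool 2. Rpl17 had 323 TPM in pool 1 and 301 TPM in pool 2, and Rpl39, a very small protein, 308 TPM in pool 1 and 291 TPM in pool 2. The genes of proteins near the peptidyl transferase centre were closer to each other. Rpl3 had 805 TPM in pool 1 and 754 TPM in pool 2, Rpl8 had 601 TPM in pool 1 and 549 TPM in pool 2, and Rpl10, which joins late in assembly, had 554 TPM in pool 1 and 525 TPM in pool 2. With the TPM of pseudogenes added Rpl10 was at 848 TPM in pool 1 and 826 TPM in pool 2. This was above Rpl3, with 838 TPM in pool 1 and 779 TPM in pool 2. With reads added, Rpl10 was at 802 TPM in pool 1 and 775.6 TPM in pool 2. Rpl3, at 835 TPM in pool 1 and 776.9 TPM in pool 2, was then the higher in both.

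Among genes of the small subunit, Rps2 and Rps3 line the channel where mRNA enters. Rps2 had 953 TPM in pool 1 and 896 TPM in pool 2, and Rps3 had 439.8 TPM in pool 1 and 403 TPM in pool 2. Rps23, at the decoding centre, was listed as the lowest of these 3 with 178 TPM in pool 1 and 168 TPM in pool 2. With the TPM of pseudogenes added Rps23 became the highest, with 1169 TPM in pool 1 and 1121 TPM in pool 2. Rps2 then had 982 TPM in pool 1 and 924 TPM in pool 2. With reads added at the length of the core gene, Rps23 had 669.9 TPM in pool 1 and 641 TPM in pool 2. This was above Rps3 but below Rps2, which had 981 TPM in pool 1 and 923 TPM in pool 2. Rpsa, Rps26 and Rps28 lie near the mRNA exit. As listed, Rps26 was the highest of them with 750.3 TPM in pool 1 and 708 TPM in pool 2, Rpsa had 591 TPM in pool 1 and 561 TPM in pool 2, and Rps28 had 563 TPM in pool 1 and 493 TPM in pool 2. With the TPM of pseudogenes added Rps28 became the highest, with 1007 TPM in pool 1 and 849 TPM in pool 2. Rps26 then had 757 TPM in pool 1 and 718 TPM in pool 2. With reads added, Rps28 had 737.5 TPM in pool 1 and 633 TPM in pool 2. Rps26 stayed above it on that scale, with 756 TPM in pool 1 and 717 TPM in pool 2.

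Rps6, the ribosomal substrate of the S6 kinases that act below mTOR, had 517 TPM in pool 1 and 424 TPM in pool 2. Rps27a is made as a fusion with ubiquitin and had 722 TPM in pool 1 and 650.0 TPM in pool 2. Fau, which lies outside the naming rule and fuses a ubiquitin-like protein to a small subunit protein, was lower, with 446 TPM in pool 1 and 407 TPM in pool 2.

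Genes whose mutation gives a developmental defect in mice were not at a level of their own. Their median was 536 TPM in pool 1 and 490.4 TPM in pool 2, a little below that of all core genes. Rpl38, mutated in Tail-short mice with patterning defects of the skeleton, had 644 TPM in pool 1 and 565 TPM in pool 2. Rpl24, mutated in Belly spot and tail mice, had 592 TPM in pool 1 and 542 TPM in pool 2. Rps20, mutated like Rps19 in mice with dark skin, had 409 TPM in pool 1 and 399 TPM in pool 2. Rps7 had 481 TPM in pool 1 and 439 TPM in pool 2. Rpl27a, mutated in Sooty foot ataxia mice with cerebellar defects, was the second lowest core gene as listed.

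All 18 genes of the human Diamond-Blackfan anaemia list were detected, with a median of 586 TPM in pool 1 and 544 TPM in pool 2. As listed, they ran from Rpl5 to Rps19, nearly the whole core range. Rps29, Rps26, Rpl35, Rps24, Rpl18 and Rpl26 were between 632 and 946 TPM in pool 1 and between 588 and 871 TPM in pool 2. Rps10, Rpl35a, Rps28 and Rps7 were between 481 and 589 TPM in pool 1 and between 439 and 544 TPM in pool 2. The low members as listed were Rpl31, Rps27, Rpl11, Rpl15, Rpl27 and Rpl5, all at most 315 TPM in pool 1 and at most 305 TPM in pool 2. Rpl15 was listed with 249 TPM in pool 1 and 213 TPM in pool 2. In each of these but Rps27 the processed pseudogenes held more TPM than the gene in both pools. With the TPM of pseudogenes added, the lowest of those genes was Rpl11, with 521 TPM in pool 1 and 486 TPM in pool 2. The highest was Rpl27, with 1056 TPM in pool 1 and 946 TPM in pool 2. With reads added at the length of the core gene, Rpl27 was still the highest, with 678 TPM in pool 1 and 610.3 TPM in pool 2. The lowest was then Rpl5 in pool 1, with 421 TPM, and Rpl11 in pool 2, with 399 TPM.

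The X chromosome carries 4 core genes, and 1 chromosome, 7, carries 14. In all, 19 chromosomes carry core genes, none of them the Y. Rps4x had 486 TPM in pool 1 and 472 TPM in pool 2, and Rpl36a had 301 TPM in pool 1 and 281 TPM in pool 2. With Rpl10 and Rpl39 the X-linked genes had a median of 397 TPM in pool 1 and 381 TPM in pool 2, below that of all core genes. Many core genes also carry small nucleolar RNAs (snoRNAs), the guides of ribosomal RNA modification, in their introns. In GENCODE vM21, 30 of 77 core genes (39.0%) had an annotated snoRNA inside, 58 in all, against 222 of 13020 expressed protein-coding nuclear genes (1.71%). Rpl4 held 5 of them and Rpl13a held 4. The snoRNAs themselves are shorter than the RNA kept for these libraries and were not analysed here.

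Further core genes, outside these role lists and outside the ends of the range, lay near the median. For the large subunit, Rpl36, Rpl23a, Rpl13a, Rpl19, Rpl9, Rpl29 and Rpl14 were between 579 and 896 TPM in pool 1 and between 557 and 818 TPM in pool 2. Rpl34, Rpl7a, Rpl30, Rpl6, Rpl23 and Rpl21 were between 402 and 514 TPM in pool 1 and between 365 and 456 TPM in pool 2. For the small subunit, Rps9, Rps18, Rps25, Rps3a1 and Rps15 were between 602 and 924 TPM in pool 1 and between 549 and 838 TPM in pool 2. Rps13, Rps16, Rps15a and Rps21 were between 333 and 575 TPM in pool 1 and between 298 and 517 TPM in pool 2. In pool 1 43 of the 77 core genes lay between 500 and 1000 TPM and 28 below, and in pool 2 39 lay between these values and 32 below.

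Promoter sequence was read for the core genes with an entry in the RefSeq promoter table (GRCm38.p6), 57 of 77 genes with 67 starts. A window runs from 250 bases before the start to 50 after it. The windows below are shown because the pyrimidine run near the start was, of the 5 features searched, the one found in most of these genes. Each gives the 40 bases before the start and the first 20 bases from it, 5′ to 3′ on the gene's strand, with the longest run of C and T in capitals.
Rps6, chr4:86857348-86857407, minus strand: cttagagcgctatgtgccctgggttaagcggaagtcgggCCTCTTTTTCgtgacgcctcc
Rpl38, chr11:114668540-114668599, plus strand: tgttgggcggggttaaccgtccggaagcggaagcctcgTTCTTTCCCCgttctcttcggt
Rplp2, chr7:141447611-141447670, plus strand: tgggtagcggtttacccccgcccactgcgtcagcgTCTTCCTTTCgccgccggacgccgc
Rpl15, chr14:18270967-18271026, minus strand: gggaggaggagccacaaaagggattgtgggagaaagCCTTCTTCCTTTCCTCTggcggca
Rpl27a, chr7:109519155-109519214, plus strand: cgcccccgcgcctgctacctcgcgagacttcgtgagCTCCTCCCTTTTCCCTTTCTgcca
Rpl5, chr5:107900488-107900547, plus strand: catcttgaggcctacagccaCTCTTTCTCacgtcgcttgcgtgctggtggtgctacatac
Rps12, chr10:23787190-23787249, minus strand: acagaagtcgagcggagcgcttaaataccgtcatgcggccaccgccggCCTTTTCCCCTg
In the first 5 of these the run spans or touches the annotated start, in Rpl5 it lies ahead of it and in Rps12 behind it.

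A run of at least 8 C or T bases within 30 bases of a start was present in 41 of 57 core genes (71.9%). The same was found in 30.5% of all 27025 genes with an entry and in 29.7% of the 10201 that are protein-coding with a mean of at least 1 TPM. The run was counted on the gene's strand. The letters CCGGAA, the core bound by ETS factors, were in the window of 32 core genes (56.1%), against 16.7% of all genes and 30.8% of the expressed ones, counting both strands. GGGCGG, the GC box, was in 35 core genes (61.4%), against 38.2% of all genes and 70.1% of the expressed ones. AAGATGGC, the core of the YY1 motif, was in 5 core genes (8.77%), against 3.19% of all genes and 5.15% of the expressed ones. TATAAA was in 6 (10.5%), against 15.7% of all genes and 8.58% of the expressed ones. A match describes letters in the window and is not a site of binding. Matches of different motifs may share bases.

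The 9 non-core members divide into expressed and silent ones. Rpl3l, the striated muscle relative of Rpl3, was listed at 0.08 TPM in each pool. Rpl39l, a relative of Rpl39 known from testis, was at 0.14 TPM in pool 1 and 0.15 TPM in pool 2, and Rpl10l, also a testis gene, at 0 in both. These 3 rested on at most 3 reads a pool. The other 6 were detected, so that 83 of 86 members had at least 1 TPM in both pools. Rpl22l1, a relative of Rpl22, had 266 TPM in pool 1 and 256 TPM in pool 2, and made up 54.0% of the summed TPM of the pair in pool 1 and 53.3% in pool 2. Rpl36al had 368 TPM in pool 1 and 331 TPM in pool 2, and its share of the pair with the X-linked Rpl36a was 55.0% in pool 1 and 54.0% in pool 2. In both pairs the relative was the higher gene in each pool.

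Rps27 was the core gene most overshadowed by relatives. It had 295 TPM in pool 1 and 305 TPM in pool 2. Rps27l had 454 TPM in pool 1 and 415 TPM in pool 2. Rps27rt, a retrogene copied from Rps27, had 853 TPM in pool 1 and 726 TPM in pool 2, and its share of the pair with Rps27 was 74.3% in pool 1 and 70.4% in pool 2. The interval that the authors deposited around TPM was the widest of all core genes for Rps27, 29.8% of its TPM in pool 1 and 25.6% in pool 2, against core medians of 4.76% in pool 1 and 5.03% in pool 2. The split of reads between Rps27 and Rps27rt is therefore uncertain. Rpl7l1, a distant relative of Rpl7, had 101 TPM in pool 1 and 84.6 TPM in pool 2, and 9.24% of the pair in pool 1 and 7.52% in pool 2. Rps19bp1, which binds Rps19, had 52.7 TPM in pool 1 and 46.3 TPM in pool 2.

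Ribosomal protein mRNAs are among the most frequent sources of processed pseudogenes, intronless copies of an mRNA set back into the genome. Reads from an mRNA and from an identical copy cannot be told apart, so the level listed for a core gene depends on how the authors' quantification divided them. To measure the amount at stake, each annotated pseudogene and each gene with a -ps symbol was matched to the core transcripts of GENCODE vM21 by shared stretches of 31 bases. A copy was assigned to a core gene when at least 50% of its stretches were shared. This gave 247 copies of 64 core genes. Of these, 124 had under 1 TPM in both pools and 24 had at least 100 TPM in both. Of the 24, 18 shared 100% of their stretches with the core gene. Members by the naming rule were not candidates. Rps27rt, with 853 TPM in pool 1 and 726 TPM in pool 2, is therefore not counted among the copies.

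The aligned stretches below show how close the pairs are, and were chosen because each copy held more TPM than its core gene. Each is 60 bases of the coding region, 5′ to 3′, from GENCODE vM21 on GRCm38. Capitals mark a base that differs within the pair.
Rps23, gene at chr13:90922958-90924950, plus strand: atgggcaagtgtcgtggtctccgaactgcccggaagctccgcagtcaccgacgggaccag
Rps23-ps1, gene at chr3:37714740-37715164, plus strand: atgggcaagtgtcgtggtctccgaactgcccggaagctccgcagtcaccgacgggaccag
Rpl37, gene at chr15:5116645-5119140, plus strand: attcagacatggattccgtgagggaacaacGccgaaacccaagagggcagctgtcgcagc
Rpl37rt, gene at chr5:115102923-115110268, minus strand: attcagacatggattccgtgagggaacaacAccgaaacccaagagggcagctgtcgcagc
Coordinates are those of the whole gene, not of the stretch. Over their aligned length the Rps23 pair was identical at 425 of 425 bases and the Rpl37 pair at 343 of 344.

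The retrocopies, without Rps27rt, together held 11437 TPM in pool 1 and 11019 TPM in pool 2. This equals 24.1% of the TPM of the core genes in pool 1 and 25.2% in pool 2. In expected counts the retrocopies held 132805 in pool 1, or 15.5% of core reads, and 124208 in pool 2, or 16.3%. The difference between the scales goes with length, since the copies are shorter and a read counts for more TPM on a short entry. The highest copy, Rps23-ps1, had 991 TPM in pool 1 and 951 TPM in pool 2, while Rps23 itself had 178 TPM in pool 1 and 168 TPM in pool 2. Gm14303, a copy of Rps29, had 871 TPM in pool 1 and 833 TPM in pool 2. Rpl15-ps3 had 789.8 TPM in pool 1 and 709 TPM in pool 2. Gm12918, a copy of Rpl13, had 616 TPM in pool 1 and 658 TPM in pool 2. Gm15500, a copy of Rpl5, had 563 TPM in pool 1 and 537 TPM in pool 2, 8.87 times the TPM of Rpl5 in pool 1 and 9.43 times in pool 2.

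The signal on copies fell mostly on a part of the core genes. In 13 of 77 the copies held more TPM than the gene in both pools, among them Rpl5, Rpl27a, Rpl12, Rps12, Rpl28, Rpl27, Rps23, Rpl37, Rpl10a, Rpl15, Rpl11 and Rpl31. Rps6 was a fourteenth in pool 2. In 25 genes the copies held over 10% of the sum in both pools. Among the 10 lowest core genes the copies exceeded the gene in 9, all but Rpl22, and among the 10 highest the copies held over 10% of the sum in 2, Rps29 and Rpl13. Counted in reads the shares were lower but of the same kind: copies held 84.9% of the reads of Rpl5 and its copies in pool 1 and 86.2% in pool 2. For Rps23 the share was 73.5% in pool 1 and 73.7% in pool 2, and for Rpl27 74.3% in pool 1 and 73.5% in pool 2. In 8 core genes, 7 of them among the lowest 10, over 50% of reads lay on copies in both pools.

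**Figure D2:**
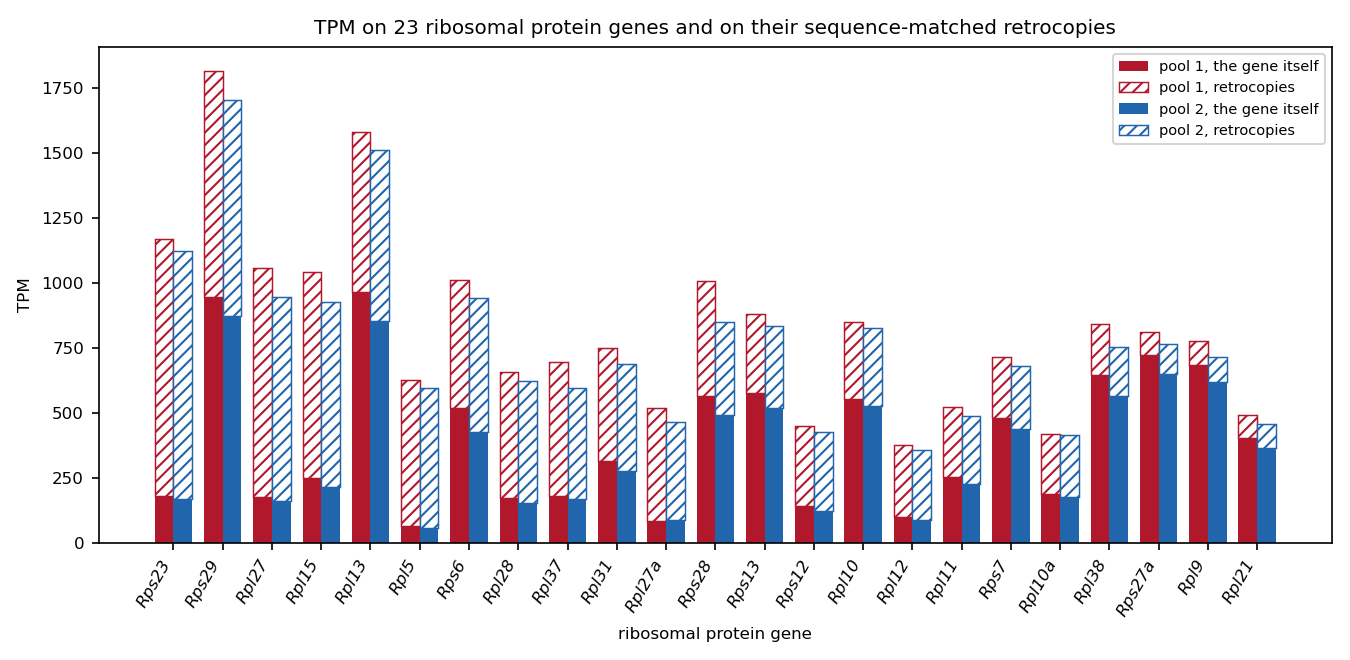
TPM (vertical) of 23 core ribosomal protein genes whose retrocopies held over 10% of the sum in both pools, ordered by retrocopy TPM. Filled bars show the gene itself and hatched bars its retrocopies, pool 1 left in red and pool 2 right in blue; Rps23 at the left had 178 TPM of its own beside 992 TPM on copies in pool 1, and 168 TPM beside 953 TPM in pool 2.

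Adding the TPM of the copies to their core genes narrowed the spread of levels. The SD over genes of log2(TPM + 1) became 0.62 in pool 1 and 0.61 in pool 2. The highest gene then stood 9.26-fold above the lowest in pool 1 and 8.75-fold in pool 2, and the lowest was Rpl22, with 227 TPM in pool 1 and 224 TPM in pool 2. Adding reads in place of TPM, at the length of the core gene, gave an SD of 0.63 in both pools and a range of 9.26-fold in pool 1 and 9.06-fold in pool 2. With TPM added, 67 of 77 genes in each pool were within 2-fold of the median, against 62 without the copies. The medians of the subunits moved apart on this TPM scale. The small subunit genes were then at 757 TPM in pool 1 and 738 TPM in pool 2. The large subunit genes were at 665 TPM in pool 1 and 610.4 TPM in pool 2. Whether the copies are themselves transcribed was not tested.

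Transcript tables divided most core genes between several annotated forms. The 77 genes had 349 transcripts, 57 genes had more than 1, and Rpl13a and Rpl10 had the most, 11 each. In all 77 the transcript with the most TPM was the same in both pools. Among the 57 genes it held a median of 86.4% of the gene's TPM in pool 1 and 85.7% in pool 2 (86.0% ± 0.531, SD, n = 2). By GENCODE vM21 biotype, protein-coding transcripts held 91.3% of core TPM in pool 1 and 90.7% in pool 2. Transcripts annotated as processed transcripts, with no open reading frame given, held 4.09% in pool 1 and 4.17% in pool 2. Retained introns held 2.93% in pool 1 and 3.28% in pool 2, and targets of nonsense-mediated decay 0.404% in pool 1 and 0.529% in pool 2. The rest lay on transcripts that are absent from vM21.

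In 25 genes the main transcript had a mean share under 80%, and in 16 it had at least 95%. Rpl13a was the most divided: its main transcript, a 464-nt form with no vM21 entry, held 36.0% in pool 1 and 40.9% in pool 2. Rpl15-202 held 41.7% of Rpl15 in pool 1 and 47.7% in pool 2, and Rpl38-201 held 46.7% of Rpl38 in pool 1 and 53.2% in pool 2. In both genes the next forms are also protein-coding. The main forms of Rps14 (Rps14-205), Rpl7 (Rpl7-205) and Rps18 (Rps18-201) held between 51.5% and 55.0% in pool 1 and between 51.1% and 53.2% in pool 2. Rpl29-201 held 58.8% in pool 1 and 53.2% in pool 2, and Rps19-210 held 56.4% in pool 1 and 56.6% in pool 2. Rpl11-201, at 53.1% in pool 1 and 61.7% in pool 2, differed most between the pools among these 10. The remaining gene of the 10 most divided was Rpl5. Its protein-coding form Rpl5-201 held 57.3% in pool 1 and 52.6% in pool 2, and the retained intron form Rpl5-205 held 29.7% in pool 1 and 34.8% in pool 2. These are shares of the TPM on Rpl5 itself, and its copies held 564 TPM in pool 1 and 538 TPM in pool 2.

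Some genes are known to regulate themselves by splicing their mRNA into unproductive forms, among them Rpl3 and Rpl12. For Rpl3 the protein-coding form Rpl3-201 held 96.6% in pool 1 and 96.5% in pool 2. Shares describe the RNA present, and how much unproductive RNA was made and degraded was not tested. For Rpl12 the main transcript, Rpl12-201, is annotated as a target of nonsense-mediated decay and held 62.8% in pool 1 and 65.5% in pool 2. These are shares of the TPM on Rpl12 itself, and its copies held 275 TPM in pool 1 and 270 TPM in pool 2. Rpl12-201 had 62.0 TPM in pool 1 and 56.2 TPM in pool 2. Rps24, which has alternative short final exons, had 98.1% on Rps24-201 in pool 1 and 98.3% in pool 2. In Rps20 the transcript Rps20-201, annotated as a retained intron, held 91.7% in pool 1 and 91.6% in pool 2. The main transcript's share differed between the pools by a median of 0.905 percentage points. Rps20 was named in this respect after its transcript values were seen.

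**Figure D3:**
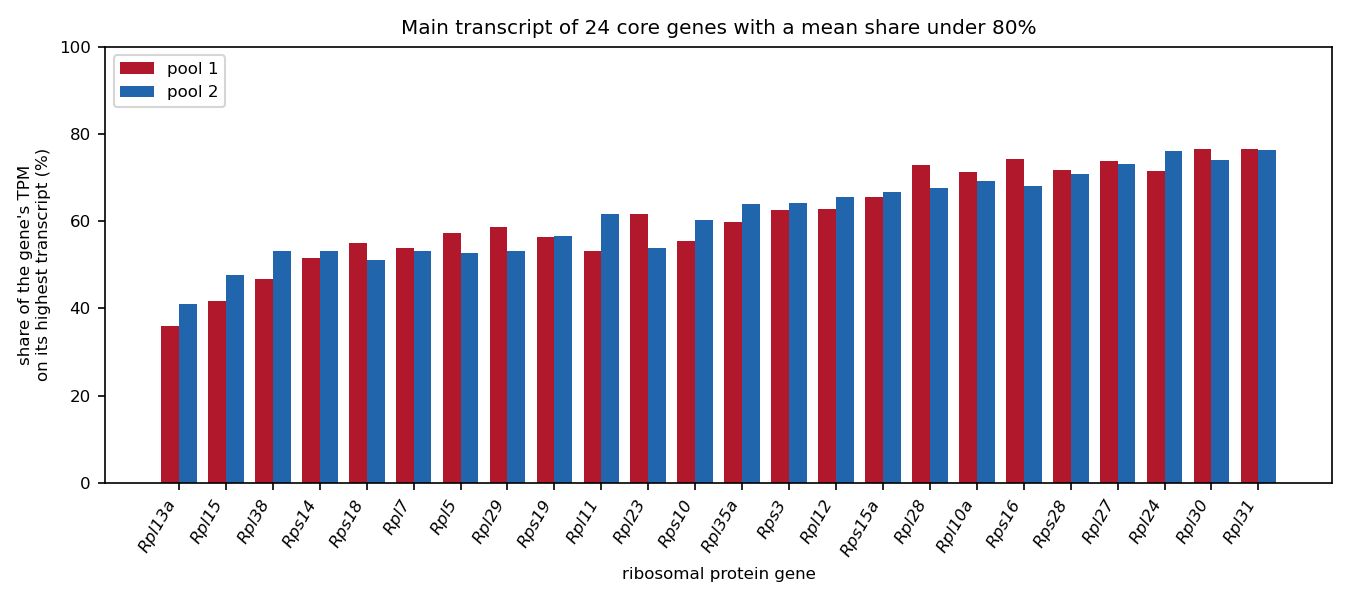
Share of a gene's TPM held by its highest transcript (vertical, percent) for 24 core genes with a mean share under 80%, ordered by that mean; pool 1 is the left bar in red and pool 2 the right bar in blue. Rpl13a, at the left, has the lowest share, 36.0% in pool 1 and 40.9% in pool 2.

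The pools agreed closely on these genes. The ratio of pool 1 over pool 2 was taken on the log2(TPM + 1) scale, as pool 1 minus pool 2, less 0.11, its median over 14942 genes with a mean of at least 1 TPM, and a gene was called apart at over 1.2-fold. Of the 77 core genes 0 were called. Among all genes with at least 1 TPM 26.7% were called, 9.8% higher in pool 1 and 16.9% higher in pool 2. Among the 1448 genes with at least 100 TPM, nearer to the core genes in level, 6.08% were called, 3.45% higher in pool 1 and 2.62% higher in pool 2. The SD of the ratio over core genes was 0.064, against 0.14 over those 1448 genes, and 72 of 77 core genes (93.5%) lay within 1.1-fold, against 74.4%. The median error from counting alone was 0.021 on this log2 scale. Each pool is 1 library, so these ratios have no replicate check.

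The core gene highest in pool 1 by this ratio was Rps6, at 0.18. The main copy of Rps6, Rps6-ps4, had 491 TPM in pool 1 and 513 TPM in pool 2, the opposite order to Rps6. With the named copies added the ratio of Rps6 was -0.0050. Among those relatively higher in pool 2, Rpl7 was at -0.17, Rps27 at -0.16 and Rpl27a at -0.15. For Rpl27a, whose copy Gm7536 had 429 TPM in pool 1 and 371 TPM in pool 2, adding the TPM of its copies gave 0.041. The 4 X-linked genes lay between -0.066 and -0.013.

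**Figure D4:**
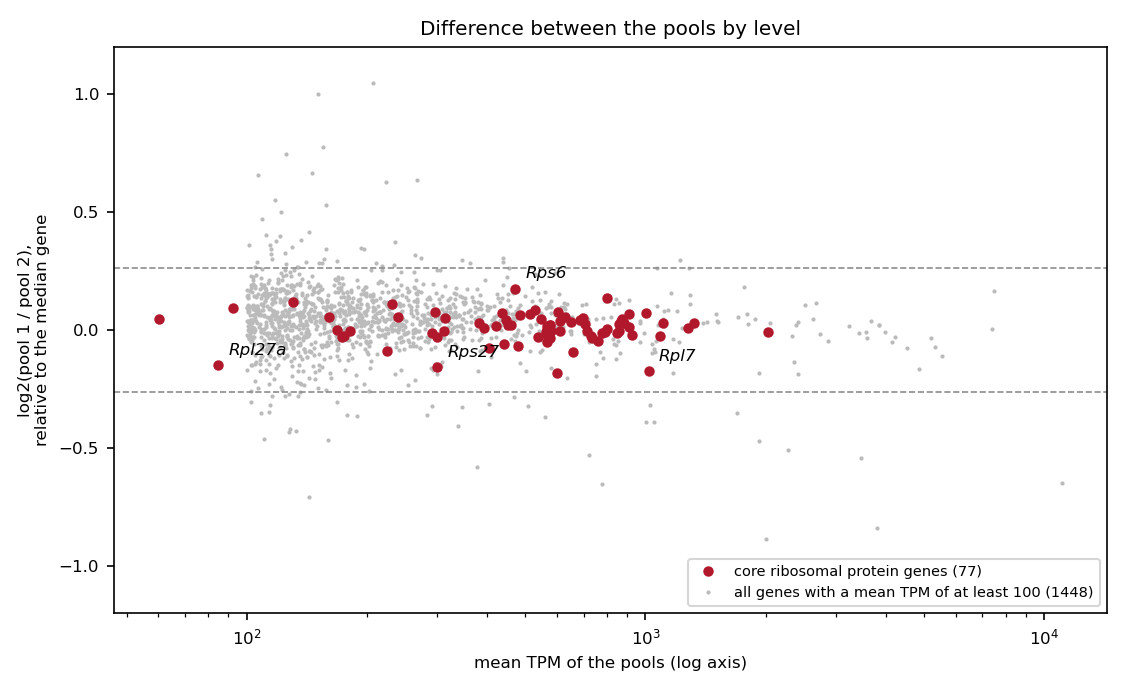
log2 ratio of pool 1 over pool 2 relative to the median gene (vertical) against mean TPM (horizontal, log axis) for the 77 core ribosomal protein genes (red) and all 1448 genes with a mean of at least 100 TPM (grey); dashed lines mark 1.2-fold. All red points lie between -0.18 and 0.18, inside the lines, and 6.08% of the grey ones lie outside.

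The lists of other genes of the pathway had lower medians than the core genes, though single genes in them were higher. The 27 translation factors and other TOP mRNAs were all detected, with a median of 243 TPM in pool 1 and 237 TPM in pool 2. Eef1a1, the factor that brings aminoacyl-tRNA to the ribosome, had 3710 TPM in pool 1 and 3455 TPM in pool 2, above every core gene. Hnrnpa1 followed with 960.1 TPM in pool 1 and 877 TPM in pool 2, and Eif3f was the lowest with 59.3 TPM in pool 1 and 60 TPM in pool 2. Rack1, a protein of the small subunit that lacks the Rps name, had 496 TPM in pool 1 and 460.3 TPM in pool 2. By the same 1.2-fold call 2 of the 27 were higher in pool 1 (Eif2s3x and Eif4b) and 0 in pool 2, where 9.8% of all genes with at least 1 TPM were called higher in pool 1 and 16.9% higher in pool 2.

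The 32 genes of ribosome assembly had a median of 58.3 TPM in pool 1 and 49.5 TPM in pool 2. The core median was 10.1 times this in pool 1 and 11.1 times in pool 2. Ncl, the nucleolar protein nucleolin, had 273 TPM in pool 1 and 230.0 TPM in pool 2. Nop56, of the snoRNA particles, had 247 TPM in pool 1 and 200.5 TPM in pool 2. Polr1a, the large subunit of RNA polymerase I, had 12.1 TPM in pool 1 and 12.3 TPM in pool 2. Of these 32 genes 3 were called higher in pool 1 (Rrs1, Gnl3 and Nop2), a share near the 9.8% of all genes with at least 1 TPM, and 0 in pool 2.

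The 11 regulators had a median of 20.5 TPM in pool 1 and 21.8 TPM in pool 2. Mycn, a transcription factor of growing neural progenitors, was the highest with 74.0 TPM in pool 1 and 56.1 TPM in pool 2. It was called higher in pool 1, 1 of 11 beside 9.8% of all genes with at least 1 TPM. Eif4ebp1, an inhibitor of translation that mTOR inactivates, had 48.1 TPM in pool 1 and 44.4 TPM in pool 2. Rptor, the mTOR partner Raptor, was the lowest with 7.60 TPM in pool 1 and 8.33 TPM in pool 2. Eif4ebp2 and Larp1 were called higher in pool 2, 2 of 11 beside 16.9% of all genes with at least 1 TPM. The 77 ribosomal proteins of mitochondria, which build a separate ribosome, had a median of 75.3 TPM in pool 1 and 70.4 TPM in pool 2, so that the cytosolic genes were 7.82 times as high in pool 1 and 7.80 times in pool 2. Mrps21 had 249.98 TPM in pool 1 and 237 TPM in pool 2, and Mrpl42 had 214 TPM in pool 1 and 196 TPM in pool 2. Mrpl1, the lowest, had 19.2 TPM in pool 1 and 14.6 TPM in pool 2. It was the only 1 of the 77 called, higher in pool 1. Among all genes with at least 1 TPM, 9.8% were called higher in pool 1 and 16.9% higher in pool 2.

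**Figure D5:**
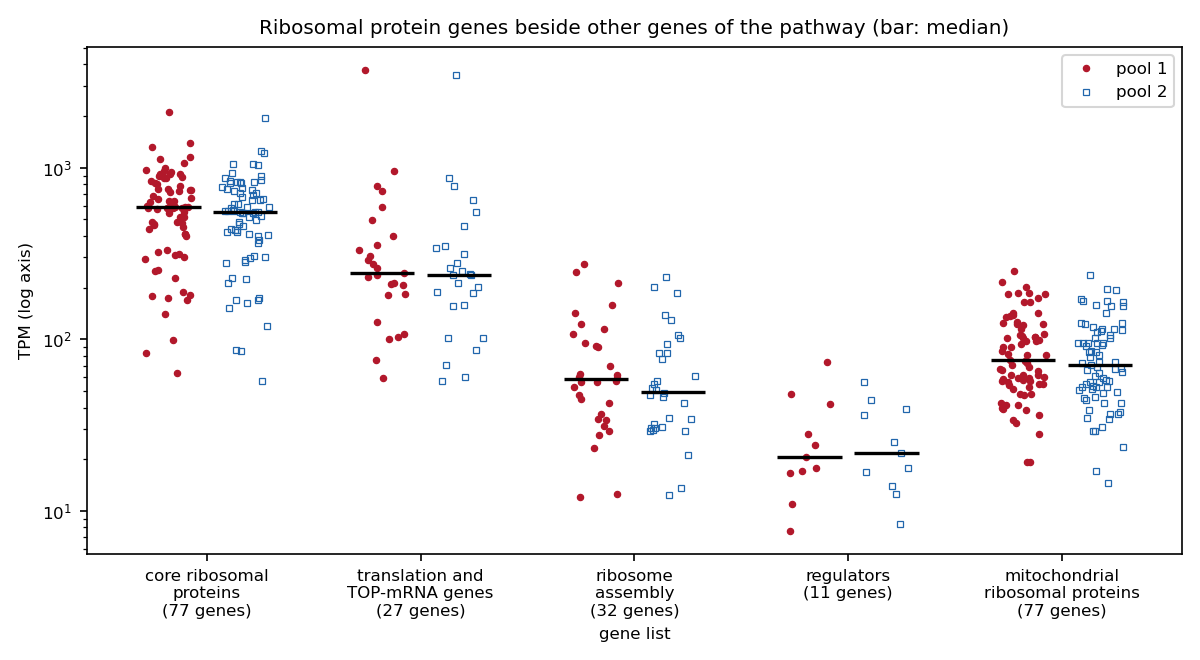
TPM (vertical, log axis) of each gene in 5 gene lists, pool 1 left as filled circles and pool 2 right as open squares, with the median of each list as a black bar. The core ribosomal proteins have the highest median, 589 TPM in pool 1 and 549 TPM in pool 2, and the regulators the lowest, 20.5 TPM in pool 1 and 21.8 TPM in pool 2.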

How the data were processed

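RNA was extracted with the mirVana kit and a Smart-Seq document applied, per the labels' protocols. Per the file headers, the authors deposited an expected count (estimated, possibly fractional), TPM, FPKM, an isoform percent for transcripts, and a score pair that bounds an interval around TPM. The level of that interval, the aligner, the quantification tool and the strand setting were not given in the sources used here. The build was mm10 with annotation M4, per the labels and the deposited readme. Symbols came from GENCODE vM21 (GRCm38, the same build) for 42462 of 43346 identifiers, and pseudogenes were matched to vM21 transcripts.

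Levels were compared as log2(TPM + 1), or as log2 TPM for the correlation between the pools, with no p-value. Members and lists were chosen with earlier results of these data known, and the rule for pseudogenes after seeing these values. Genes named are those of the role lists, the 10 highest and 10 lowest core genes, all non-core members, the 10 with the most divided transcripts, the 5 with most TPM on -ps pseudogenes, and the ends of the other lists; some genes that this rule selects are not reported here or drawn in the figures of single genes, though counts and medians include them. Alternatives included FPKM, a pseudocount of 0.1, other centrings, and expected counts scaled by TMM (edgeR 4.0.16) or DESeq2 1.42.0 (R 4.3.3). Python 3.11.15 with pandas 2.3.3 did the rest. The depth was 45340440 expected counts in pool 1 and 41261544 in pool 2.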

Additional observations from a re-analysis of the deposited data

How the results depend on the processing

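The median TPM of the core genes (569) was 379 as FPKM and 812 after rescaling to protein-coding nuclear genes; it was 618 with named pseudogenes added, 696 with the TPM of sequence-matched pseudogenes and 628 with their reads. The share of TPM (4.56%) was 6.51%, 5.06%, 5.68% and 5.18% under the last 4 of these. The spread over genes (SD 0.9447 of log2) was 0.943 with FPKM, 0.948 with a pseudocount of 0.1, 0.873 with named pseudogenes, 0.62 with matched TPM and 0.63 with matched reads. The small minus large subunit median (0.027) was 0.23, 0.23 and 0.25 under those 3, while the medians with each pool alone ran from 0.017 to 0.037. The cause was not tested beyond what each setting adds. The count of core genes over 1.2-fold apart was 0 under each of the 11 settings tried for it. Among these settings, a 1.5-fold cut on the same ratios could give no other count. The core median ratio changed sign between settings, from -0.018 with the median gene taken over genes of at least 10 TPM to 0.067 with it taken over genes with any read. The number of members detected and the median main transcript share moved by less than 1.5 times. Of 770 alternative values for single genes 555 moved by less than their counting error. Matched pseudogenes were chosen after seeing the data. No paired analysis was possible because the labels give only 1 group. Ratios of genes with few reads are limited by depth; all core genes had over 1000 reads in each pool.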
